A study of Rattus norvegicus with 16 samples.

Results

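A set of 9 genes of the high-affinity IgE receptor and of mast cells were followed in rats exposed to house dust mite (HDM), a common source of inhaled allergens. They were the receptor subunits Fcer1a, Ms4a2 and Fcer1g, the mast cell proteases Cpa3, Tpsab1, Tpsb2 and Cma1, the growth factor receptor Kit and the histamine-forming enzyme Hdc. A probe was assigned to a gene when the RefSeq transcript that the array names for it belongs to that gene, and the brightest probe per gene and tissue was used. This gave 9 of the 16678 gene symbols with a probe, through 10 probes, since Hdc had 2. Male Brown Norway rats, described as 7 weeks old ahead of the steps below, gave lung and adipose tissue for 16 single-color microarrays, 8 per tissue. Their age at tissue collection was not given. Over the first 3 weeks, the 5 rats of the HDM group were sensitized by weekly injections under the skin, each with 45 µg of HDM and the adjuvant Al(OH)3. Nasal challenge took the next 3 weeks, at 3 doses a week of 120 µg HDM dissolved in saline. The 3 control rats went through the same steps without HDM, so that both groups carried the adjuvant. The labels name the second tissue only as adipose tissue, with no depot. No member gene was called changed between HDM and control rats in either tissue.

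Mast cells carry the high-affinity IgE receptor on their surface, and allergen that crosslinks IgE on this receptor makes them release granules holding histamine and proteases. The alpha subunit binds IgE, while the beta and gamma subunits carry the signal into the cell. The gamma subunit is not particular to this receptor: it also serves Fc receptors for IgG on macrophages, neutrophils and natural killer cells. Tryptases, chymases and carboxypeptidase A3 are stored in mast cell granules, and Kit is the receptor for stem cell factor, on which mast cells depend. In adipose tissue, mast cells lie in the stroma between adipocytes.

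Of the 9 members, 7 had a promoter entry in RefSeq. Motifs of GATA factors and of E-box factors, which include the mast cell regulators GATA2 and MITF, were searched on both strands in the 250 bases before the transcription start. AGATAA was present in 3 of the 7, those of Fcer1a, Cpa3 and Cma1, and in 10.3% of all 33469 promoters of that length. The E-box CATGTG was also present in 3 of the 7, Fcer1a, Cpa3 and Tpsb2, against 12.1% of all. TGATAA was found in none of the 7 and in 7.97% of all, CACGTG in none and in 5.59%, and CAGCTG in Fcer1a alone and in 12% of all. The letters alone do not show that a factor binds there. The sequences are given for the alpha subunit and for 2 proteases, which hold the motifs, and for Hdc, which holds neither and had the widest lung difference in the results below. They are from RefSeq on the GRCr8 assembly, written 5′ to 3′ on the strand of the gene, all 4 on the minus strand, at chr13:88224680-88224929 for Fcer1a, chr2:104673238-104673487 for Cpa3, chr15:33390134-33390383 for Cma1 and chr3:134318705-134318954 for Hdc. Capitals mark AGATAA and CATGTG or their reverse complements.
Fcer1a: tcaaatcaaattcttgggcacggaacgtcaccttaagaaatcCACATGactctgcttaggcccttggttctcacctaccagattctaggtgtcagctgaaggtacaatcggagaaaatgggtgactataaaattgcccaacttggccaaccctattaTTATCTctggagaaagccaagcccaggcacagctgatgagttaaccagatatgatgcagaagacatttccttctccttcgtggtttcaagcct
Cpa3: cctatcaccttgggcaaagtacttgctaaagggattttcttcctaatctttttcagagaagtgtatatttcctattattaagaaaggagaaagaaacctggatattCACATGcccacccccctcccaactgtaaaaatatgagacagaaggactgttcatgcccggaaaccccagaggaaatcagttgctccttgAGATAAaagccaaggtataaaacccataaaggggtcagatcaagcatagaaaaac
Cma1: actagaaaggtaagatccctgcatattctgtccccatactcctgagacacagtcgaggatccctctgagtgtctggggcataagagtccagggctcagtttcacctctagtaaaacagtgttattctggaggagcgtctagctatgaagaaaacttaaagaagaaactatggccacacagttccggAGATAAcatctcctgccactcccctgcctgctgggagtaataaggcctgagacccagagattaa
Hdc: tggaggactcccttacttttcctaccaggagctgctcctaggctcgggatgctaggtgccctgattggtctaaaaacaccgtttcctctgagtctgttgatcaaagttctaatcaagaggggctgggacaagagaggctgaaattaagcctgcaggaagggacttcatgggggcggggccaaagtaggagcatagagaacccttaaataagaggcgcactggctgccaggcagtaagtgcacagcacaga

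AGATAA lay nearest to the start in Cpa3, with the first base of the match 55 bases before it, against 64 in Cma1 and 93 in Fcer1a. The Cpa3 and Cma1 matches were on the strand of the gene and the Fcer1a match on the opposite strand. CATGTG lay 144 bases before the start in Cpa3, 208 in Fcer1a and 209 in Tpsb2. Cpa3 and Fcer1a were the members with both motifs.

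Levels are given as log2 signal relative to the 75th percentile of all probes on the same array, so that 0 is the level of that percentile and 1 unit is a doubling. A level tells how bright one probe was and was not set against another probe's. The 75th percentile was at a signal of 376 to 488 on the lung arrays and 111 to 240 on the adipose arrays, and 62.2% to 68.9% and 51.2% to 60.3% of probes were well above background. All 9 members were well above background on all 8 lung arrays, and 6 of 9 on all 8 adipose arrays. The lung epithelium markers averaged 6.52 to 6.86 in lung and the adipocyte markers 4.78 to 6.31 in adipose tissue. Adipose tissue of HDM rat 1 and control rat 1 stood apart: a list of epididymis and testis genes averaged 3.82 and 4.71 there, and -5.11 to -3.32 in the other 6. Each tissue lay on 1 slide, with HDM rats 1 to 4 in the first row of the slide, and HDM rat 5 with the 3 control rats in the second. The row and the treatment can therefore be separated only through HDM rat 5.

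In lung, the Fcer1g signal of the 5 HDM rats lay wholly above that of the 3 control rats, Fcer1a lay above it in 4 of the 5, and Ms4a2 did not separate the groups. A member was called when its adjusted p was below 0.05 and its fold above 1.5, in limma with Benjamini-Hochberg adjustment over 45598 probes. None of the 3 subunits was called. In bulk tissue, a change in the number of cells of a type and a change in RNA per cell cannot be told apart.

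Fcer1a, the alpha subunit that holds IgE, stood at 0.13, 0.15, 0.44, -0.66 and -0.37 in HDM rats 1 to 5 and at -0.62, -0.50 and -0.93 in control rats 1 to 3. HDM rats 1, 2, 3 and 5 were above all 3 controls, and HDM rat 4 lay among them. The HDM mean was -0.06 ± 0.44 (SD, n = 5) and the control mean -0.68 ± 0.22 (SD, n = 3), a log2 difference of 0.62 (SE 0.26, 95% confidence interval 0.02 to 1.22) or 1.54-fold, with an adjusted p of 0.463 in limma. The difference from the controls was 0.31 in HDM rat 5 alone, the only HDM rat in the controls' row of the slide.

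Fcer1g, the shared gamma subunit, stood at 5.51, 5.27, 5.45, 5.46 and 5.31 in HDM rats 1 to 5 and at 4.91, 4.85 and 4.77 in the control rats. The groups did not overlap, and the spread within each was narrow. The means were 5.40 ± 0.11 (SD, n = 5) and 4.84 ± 0.07 (SD, n = 3), a log2 difference of 0.56 (SE 0.10, 95% confidence interval 0.32 to 0.80) or 1.47-fold, with an adjusted p of 0.0626 in limma. Both the adjusted p and the fold fell just short of the call. Quantile normalization moved it past both, at 0.60 with an adjusted p of 0.0275 in limma, and so did 2 other normalizations, while HDM rat 5 alone was 0.47 above the controls.

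Ms4a2, the beta subunit that amplifies the signal, stood at -1.81, -1.96, -2.08, -2.46 and -2.44 in HDM rats 1 to 5 and at -2.24, -2.16 and -2.39 in the control rats. For 3 HDM rats the value was above all controls and for 2 it was below all of them. The log2 difference was 0.11 (SE 0.18, 95% confidence interval -0.30 to 0.52), with an adjusted p of 0.959 in limma, and it was -0.18 in HDM rat 5 alone. The interval holds changes of up to about 1.44-fold upward.

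**Figure D1:**
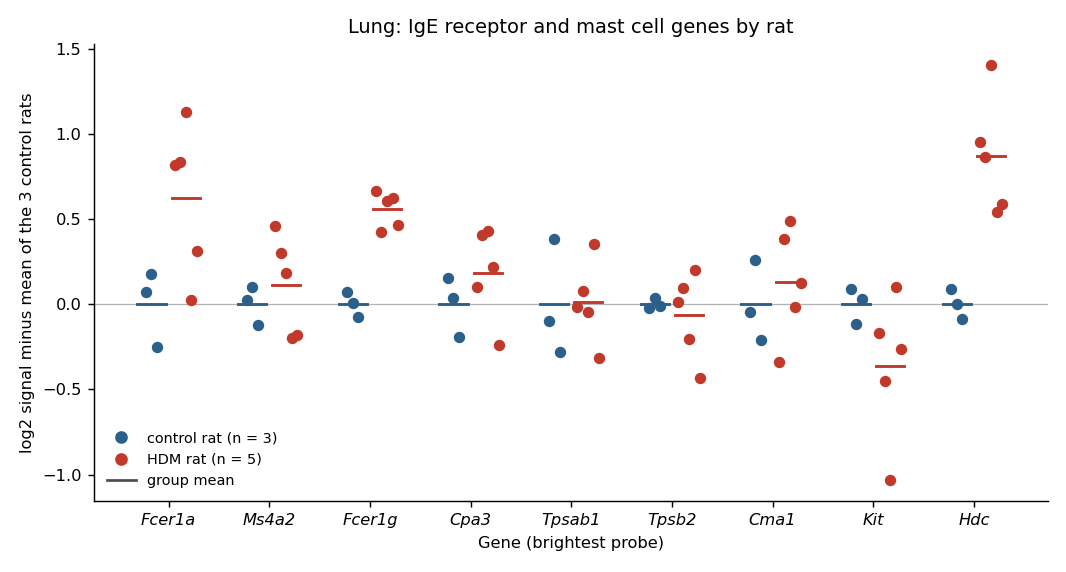
Lung values of the 9 genes by rat. The vertical axis is log2 signal minus the mean of the 3 control rats, each point is 1 rat (blue, control, n = 3; red, HDM, n = 5) and bars are group means. Fcer1g and Hdc are the genes whose 5 HDM points all lie above the 3 control points.

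The 4 mast cell proteases did not separate the groups in lung, and their log2 differences lay between -0.07 and 0.18. Cpa3, the carboxypeptidase of mast cell granules, stood at -0.13, 0.18, 0.20, -0.01 and -0.47 in HDM rats 1 to 5 and at -0.08, -0.19 and -0.42 in the control rats. HDM rat 5 had the lowest value of all 8 and HDM rat 3 the highest. The difference of 0.18 (SE 0.18, 95% confidence interval -0.23 to 0.59) had an adjusted p of 0.884 in limma and was -0.24 in HDM rat 5 alone.

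Cma1, the chymase, stood at -1.42, -0.70, -0.59, -1.10 and -0.96 in HDM rats 1 to 5 and at -1.13, -0.83 and -1.29 in the control rats. The HDM rats held both the lowest and the highest value. The log2 difference was 0.13 (SE 0.21, 95% confidence interval -0.36 to 0.61), with an adjusted p of 0.962 in limma.

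Tpsab1 and Tpsb2 encode closely related tryptases, and whether their probes tell the transcripts apart was not tested. Tpsab1 stood at -0.43, -0.34, -0.46, -0.06 and -0.73 in HDM rats 1 to 5 and at -0.51, -0.03 and -0.69 in the control rats, a log2 difference of 0.01 (SE 0.20, 95% confidence interval -0.44 to 0.46, adjusted p = 1 in limma). Tpsb2 stood at -0.02, 0.06, -0.24, 0.17 and -0.47 against -0.06, 0.00 and -0.05, a log2 difference of -0.07 (SE 0.16, 95% confidence interval -0.43 to 0.29, adjusted p = 0.992 in limma). For both tryptases the groups overlapped, HDM rat 5 was the lowest HDM rat and HDM rat 4 the highest. The sign of the Tpsab1 difference turned with the scaling, to -0.042 with the array median and -0.0997 with Gapdh and Hprt1.

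Kit lay below all 3 controls in 4 of the 5 HDM rats and above them in HDM rat 4. It stood at -0.70, -0.98, -1.56, -0.42 and -0.79 in HDM rats 1 to 5 and at -0.44, -0.64 and -0.50 in the control rats. The log2 difference of -0.36 (SE 0.24, 95% confidence interval -0.92 to 0.19) had an adjusted p of 0.746 in limma.

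Hdc, which makes histamine from histidine, had the widest difference of the 9 members in lung. It stood at 2.23, 2.14, 2.68, 1.82 and 1.87 in HDM rats 1 to 5 and at 1.37, 1.28 and 1.19 in the control rats. The groups did not overlap, and HDM rat 3 was the highest. The means were 2.15 ± 0.35 (SD, n = 5) and 1.28 ± 0.09 (SD, n = 3), a log2 difference of 0.87 (SE 0.20, 95% confidence interval 0.41 to 1.33) or 1.83-fold, with an adjusted p of 0.123 in limma. The second Hdc probe gave 0.83 (SE 0.20, adjusted p = 0.135 in limma) and did not overlap between the groups either. HDM rat 5 alone was 0.59 above the controls. Hdc was called when the adjustment covered only the 4320 probes past 1.5-fold, with array weights, and with normexp correction followed by quantile normalization, at adjusted p of 0.0142, 0.0367 and 0.0261 in limma.

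Across the 9 members in lung, 0 were called against 0.855% of all probes. An unadjusted p below 0.05 was found for 3 members, all higher with HDM (Fcer1a, Fcer1g and Hdc), and 5.25% of all probes were higher at that level. The HDM rats lay wholly above the controls for 2 members, Fcer1g and Hdc, and for 4.65% of probes. The log2 difference was above 0 for 7 members and below 0 for 2, with a median of 0.13 against 0.00 over all probes. Taken within the second row of the slide, where HDM rat 5 is the only HDM rat, Tpsab1 differed from the controls by -0.31, Tpsb2 by -0.43, Kit by -0.26 and Cma1 by 0.12, and no member was called.

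Neutrophil markers in the same lungs averaged 0.14 to 0.61 in the HDM rats and -2.04 to -1.76 in the control rats, and 7 of the 11 measured of 12 listed were called higher, and Elane was dim on all 8 lung arrays. S100a8, an abundant neutrophil protein, differed by 4.46 (SE 0.29, adjusted p = 0.000736 in limma). Macrophage and monocyte markers averaged 1.36 to 1.54 against 1.28 to 1.37, with Itgam (1.03, adjusted p = 0.0285 in limma) the 1 of 14 called. Eosinophil markers averaged -3.01 to -2.16 against -4.10 to -3.41, with 7 of 7 higher and 1 called, Siglec5 (0.97, adjusted p = 0.0425 in limma). Prg3 differed by 2.73 (adjusted p = 0.0581 in limma) and Prg2 by 1.75 (adjusted p = 0.158 in limma). Epx and Prg3 were not well above background in the controls, and Il5ra was not on any lung array. Basophil markers averaged -1.28 to -0.98 against -1.56 to -1.16, with 0 of 5 called. Neutrophils and macrophages use Fcer1g, and basophils use Hdc and Fcer1a. The part of these cells in the Fcer1a, Fcer1g and Hdc values was not tested.

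In adipose tissue the groups overlapped for all 9 members, and Fcer1g came nearest to separating them. For 8 of 9 members the SD over the HDM rats was wider than the difference between the group means, Fcer1g being the exception. HDM rat 1 was the lowest HDM rat for 8 of 9 members and control rat 1 the lowest control rat for 9 of 9, while these rats were lowest for 26.1% and 29.2% of all probes. In these same 2 rats, 12 of 13 and 13 of 13 genes of the epididymis and testis list were the highest of their group. The part of such tissue in the members' values was not tested.

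Fcer1g stood at 3.27, 3.94, 4.29, 4.72 and 4.38 in HDM rats 1 to 5 and at 2.71, 3.68 and 3.35 in the control rats. HDM rats 2 to 5 were above all controls, and HDM rat 1 lay among them. The means were 4.12 ± 0.55 (SD, n = 5) and 3.25 ± 0.49 (SD, n = 3), a log2 difference of 0.87 (SE 0.36, 95% confidence interval 0.04 to 1.70), with an adjusted p of 0.481 in limma. Macrophage markers averaged 1.47 to 2.89 in HDM and 1.03 to 2.12 in control adipose tissue, with 14 of 14 higher and 0 called, and rats 1 of both groups were the lowest there too. Neutrophil markers averaged -2.59 to -1.94 in the HDM rats and -3.43 to -3.01 in the control rats without overlap, 7 of 11 being higher and 0 called. S100a8 and S100a9 differed by 4.66 (SE 0.55, adjusted p = 0.154 in limma) and 3.83 (SE 0.33, adjusted p = 0.0853 in limma). These were the widest differences of the neutrophil list, and its averages lean on them. Lcn2 (-1.89), Camp (-0.61), Ngp (-0.85) and Elane (-0.15) were lower with HDM. Mmp8, Ngp and Elane were not well above background on any adipose array. The part of these cells in the Fcer1g values was not tested.

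Fcer1a stood at -2.63, -1.74, -1.54, -1.23 and -1.71 in HDM rats 1 to 5 and at -3.05, -1.77 and -1.28 in the control rats, a log2 difference of 0.26 (SE 0.45, adjusted p = 0.843 in limma). Ms4a2 stood at -4.76, -3.10, -3.61, -2.06 and -2.21 against -3.50, -2.54 and -1.84, a log2 difference of -0.52 (SE 0.66, adjusted p = 0.820 in limma). Both subunits were lowest in rats 1, and Ms4a2 was not well above background in HDM rat 1.

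Cma1 and Tpsab1 were the 2 proteases well above background on all 8 adipose arrays. Cma1 stood at 0.38, 1.37, 1.08, 2.44 and 1.89 in HDM rats 1 to 5 and at 0.01, 1.63 and 2.14 in the control rats. Each group spanned about 2 log2 units, with rat 1 at the low end of both, and the groups overlapped over nearly all of this span. The log2 difference was 0.17 (SE 0.59, 95% confidence interval -1.19 to 1.53, adjusted p = 0.926 in limma) and turned to -0.19 without rats 1.

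Cpa3 stood at -2.34, -0.95, -1.28, 0.30 and -0.999 in HDM rats 1 to 5 and at -3.71, -1.16 and -0.45 in the control rats, with control rat 1 not well above background. Its log2 difference of 0.72 (SE 0.80, 95% confidence interval -1.13 to 2.58, adjusted p = 0.820 in limma) was the widest among the proteases and rested on control rat 1, since it was -0.25 without it. HDM rat 4 was above all controls, and the other 4 HDM rats lay within the range of the controls.

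Tpsab1 stood at -1.59, 0.01, -0.76, -0.12 and -0.08 in HDM rats 1 to 5 and at -1.21, -0.42 and 0.32 in the control rats, a log2 difference of -0.07 (SE 0.47, adjusted p = 0.962 in limma). Tpsb2 stood at -2.65, -2.55, -2.60, -1.10 and -2.32 against -3.95, -2.38 and -1.07, a log2 difference of 0.22 (SE 0.64, adjusted p = 0.911 in limma), with control rat 1 not well above background. HDM rat 4 stood apart from the other HDM rats in Tpsb2, and all its HDM values lay within the range of the controls.

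Kit stood at -2.58, -2.72, -2.20, -3.05 and -2.32 in HDM rats 1 to 5 and at -2.99, -2.57 and -2.63 in the control rats, a log2 difference of 0.16 (SE 0.23, adjusted p = 0.821 in limma). Kit was the member for which HDM rat 1 was not the lowest HDM rat. Hdc stood at -1.13, -0.62, -0.03, -0.08 and -0.19 against -0.98, -0.21 and -0.07, a log2 difference of 0.02 (SE 0.33, adjusted p = 0.990 in limma), and the groups overlapped from end to end.

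**Figure D2:**
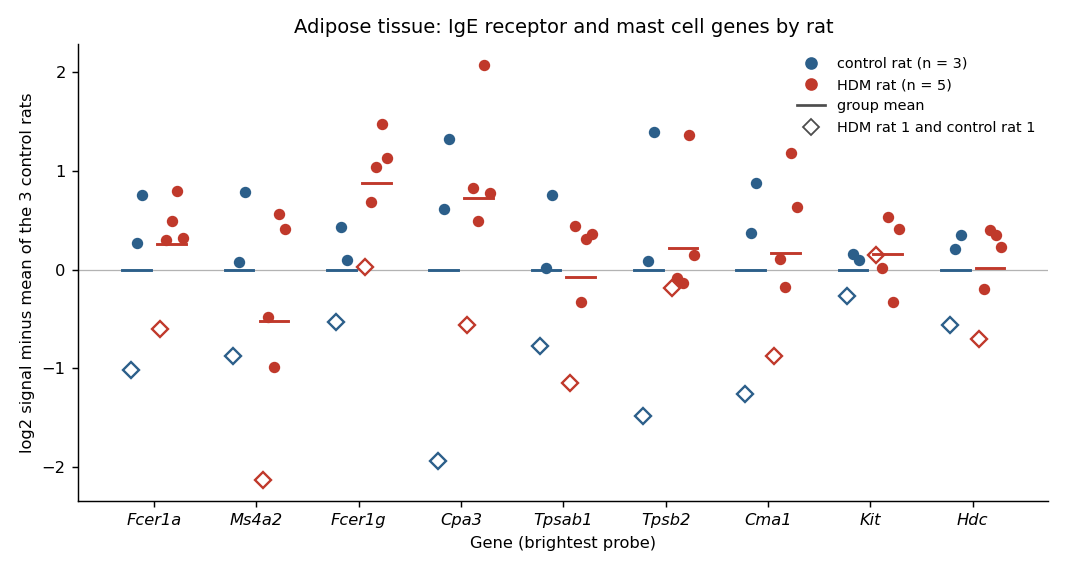
Adipose tissue values of the 9 genes by rat. The vertical axis is log2 signal minus the mean of the 3 control rats, each point is 1 rat (blue, control, n = 3; red, HDM, n = 5), bars are group means and open diamonds are HDM rat 1 and control rat 1. The diamonds are at or near the bottom of their group for every gene but Kit, where HDM rat 1 is not lowest.

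Across the 9 members in adipose tissue, 0 were called, as were 0% of all probes, and the smallest adjusted p of any probe was 0.0853. Fcer1g alone had an unadjusted p below 0.05, against 9.9% of all probes. None had HDM rats wholly above the controls, as held for 1.54% of probes. The log2 difference was above 0 for 7 members and below 0 for 2, with a median of 0.17 against -0.15 over all probes. Within the second row of the slide, HDM rat 5 was above the control mean for all 9 members, from 0.15 for Tpsb2 to 1.13 for Fcer1g. Scaling to the array median in place of the 75th percentile shifts every adipose difference by 0.29 and every lung difference by -0.052.

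**Figure D3:**
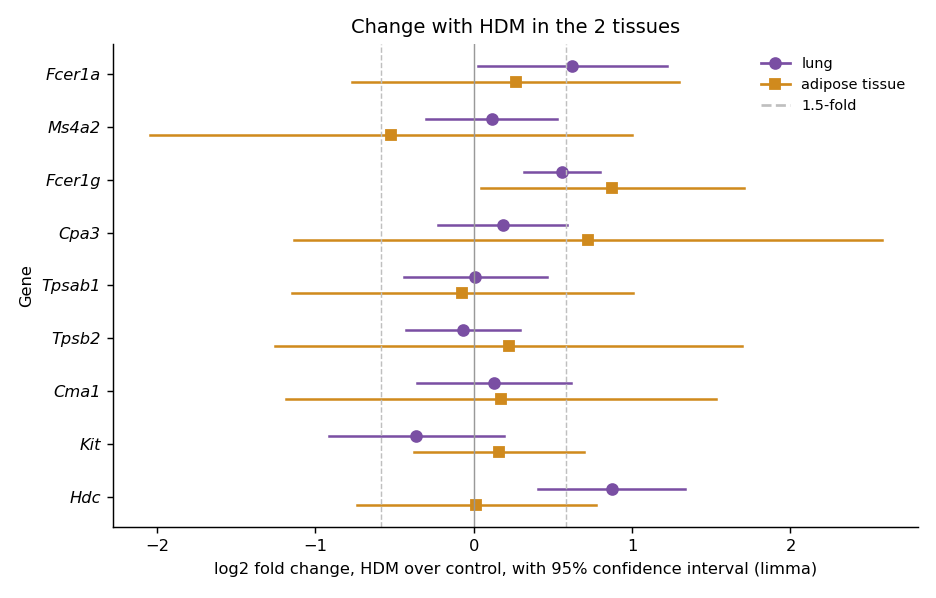
Log2 fold change of HDM over control for each gene in lung (purple circles) and adipose tissue (orange squares), with 95% confidence intervals from limma and dashed lines at 1.5-fold. The lung intervals of Fcer1a, Fcer1g and Hdc and the adipose interval of Fcer1g lie above 0, and the adipose intervals are wider than the lung intervals for 8 of the 9 genes.

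**Figure D4:**
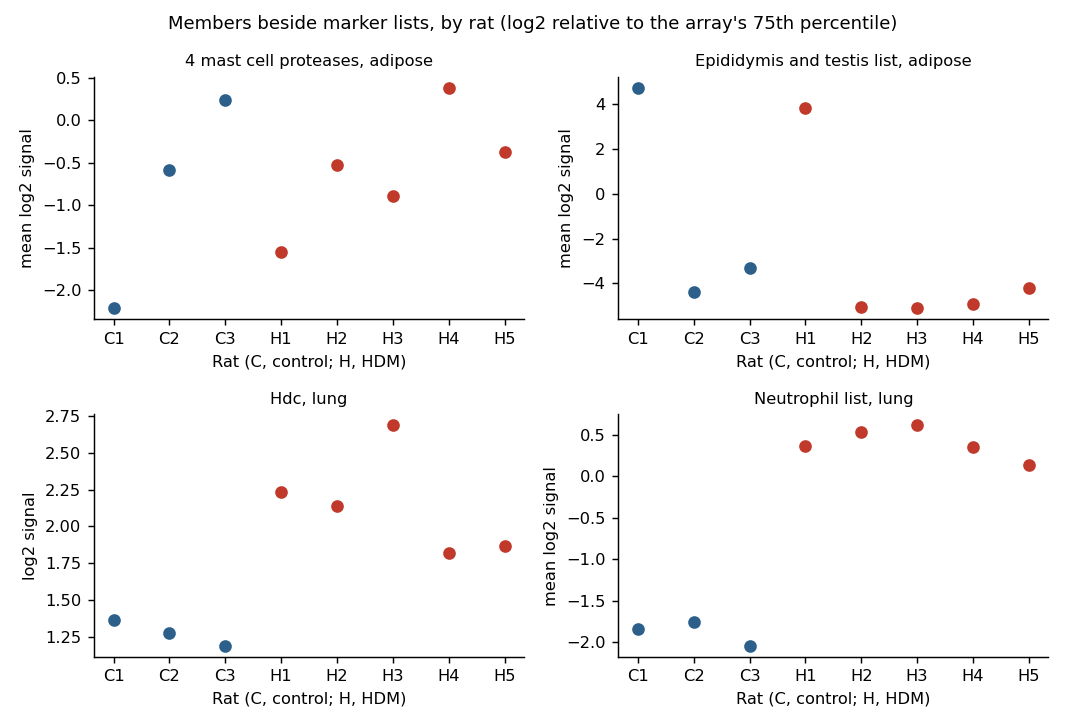
Each point is 1 rat (C, control; H, HDM), on log2 signal relative to the array's 75th percentile. The upper panels show the mean of the 4 mast cell proteases in adipose tissue, lowest in C1 (-2.22) and H1 (-1.55), beside the epididymis and testis list, highest in the same rats (4.71 and 3.82). The lower panels show Hdc and the neutrophil list in lung, where all 5 HDM rats are above the 3 control rats.

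Whether the change with HDM differed between lung and adipose tissue was tested within rats, on the lung minus adipose value of each rat. No member passed an adjusted p below 0.05 in limma, against 0.00219% of all probes, and none had an unadjusted p below 0.05, against 7.74% of probes. The lung change exceeded the adipose change for 4 members and fell below it for 5.

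Hdc came nearest. Its lung minus adipose value was 3.36, 2.76, 2.71, 1.90 and 2.06 in HDM rats 1 to 5 and 2.35, 1.49 and 1.26 in the control rats, so that 3 of 5 HDM rats were above all controls. The difference of changes was 0.86 on the log2 scale (SE 0.40, 95% confidence interval -0.08 to 1.79, adjusted p = 0.662 in limma). For Fcer1g, which had a wider difference in adipose tissue than in lung, it was -0.32 (SE 0.39, adjusted p = 0.850 in limma). For Kit it was -0.52 (SE 0.42, adjusted p = 0.777 in limma) and for Ms4a2 0.64 (SE 0.80, adjusted p = 0.851 in limma). The other 5 members lay between -0.54 for Cpa3 and 0.36 for Fcer1a.

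In control rats, 5 members were called higher in lung than in adipose tissue and 1, Cma1, lower. In this comparison 12% of all probes were called higher in lung and 32.2% lower, with a median log2 difference of -0.58 over all probes. With array-median scaling and with Gapdh and Hprt1, lung-higher probes made up 38.4% and 43.9% of the calls in place of 27.2%, and the members' 5 and 1 did not change. Each tissue lay on its own slide, so tissue and slide cannot be told apart.

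Kit was higher in lung by 2.20 on the log2 scale (SE 0.33, 4.61-fold, adjusted p = 0.00181 in limma), and in all 8 rats with HDM rats counted too. Tpsb2 was higher by 2.43 (SE 0.49, 5.39-fold, adjusted p = 0.00550 in limma), Hdc by 1.70 (SE 0.32, adjusted p = 0.00386 in limma) and Fcer1g by 1.59 (SE 0.31, adjusted p = 0.00453 in limma), each in 8 of 8 rats. Fcer1a was higher by 1.35 (SE 0.47, adjusted p = 0.0448 in limma), also in 8 of 8 rats, but fell to 0.81 (adjusted p = 0.177 in limma) without rats 1. Cpa3, higher by 1.55 (SE 0.68, adjusted p = 0.0933 in limma) and in 7 of 8 rats, was not called.

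Cma1 ran the other way. Its lung minus adipose value was -1.14, -2.46 and -3.44 in control rats 1 to 3, and it was below 0 in all 8 rats, from -3.54 to -1.14. The mean difference in the control rats was -2.34 (SE 0.48, 5.08-fold lower in lung, adjusted p = 0.00569 in limma). Tpsab1 (0.02, adjusted p = 0.966 in limma) and Ms4a2 (0.36, adjusted p = 0.650 in limma) were not called, with lung above adipose tissue in 5 of 8 rats each and standard errors of 0.41 and 0.63.

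**Figure D5:**
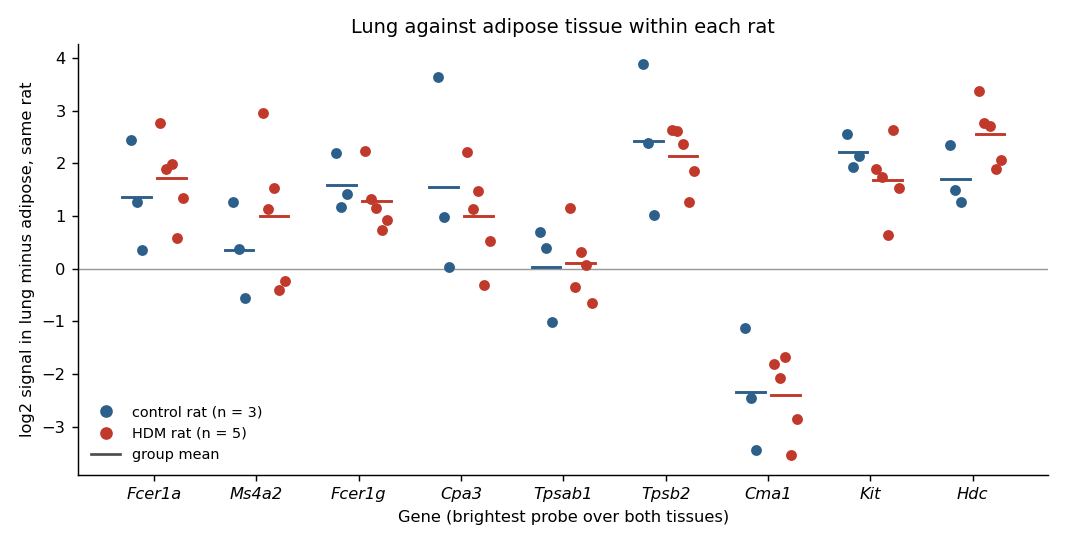
Lung minus adipose tissue log2 signal of the same rat for each gene. Each point is 1 rat (blue, control, n = 3; red, HDM, n = 5) and bars are group means. Cma1 lies below 0 in all 8 rats, while Fcer1a, Fcer1g, Tpsb2, Kit and Hdc lie above 0 in all 8.

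Genes that carry the signal of the IgE receptor were read from a list of 23, all measured. In lung 1 was called, Fgr, a Src-family kinase of myeloid cells, which was higher by 0.99 (SE 0.11, 1.99-fold, adjusted p = 0.00942 in limma), and none was called lower. Of all lung probes, 0.855% were called. The HDM rats lay wholly above the controls for 5 of the 23, against 4.65% of all probes. Btk, a kinase upstream of phospholipase C gamma, differed by 0.51 (adjusted p = 0.0784 in limma), and the small GTPase Rac2 by 0.45 (adjusted p = 0.236 in limma). Syk, the kinase that docks on the gamma subunit, differed by 0.44 (adjusted p = 0.334 in limma), and Lyn, which phosphorylates the receptor, by -0.07 (adjusted p = 0.960 in limma). Pik3r1, the regulatory subunit of phosphoinositide 3-kinase, differed by -0.77 (adjusted p = 0.103 in limma). The median over the 23 was 0.08, against 0.00 over all probes. In adipose tissue 0 of 23 were called, with Plcg2 at -0.94, Btk at 0.89, Vav1 at 0.69, Syk at 0.62 and Lyn at 0.10, and a median of 0.07 against -0.15 over all probes. Plcg2 was high in rats 1 of both groups, and its difference was -1.46 without HDM rat 1, -0.33 without control rat 1 and -0.86 without both. Btk went to 0.59 without control rat 1, and Lyn to -0.0641 without HDM rat 1.

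Of 18 further granule proteases and tryptases, 12 had a named probe and none was called in either tissue. In lung 11 of 12 were higher with HDM, with a median of 0.28 against 0.00 over all probes. None of the 12 had an unadjusted p below 0.05 in limma in lung, and none had HDM rats wholly above the controls there. In lung 9 of the 12 were well above background on at least 4 arrays. In adipose tissue 2 of 12 were higher, with a median of -0.18 against -0.15 over all probes. There 3 of the 12 had an unadjusted p below 0.05 in limma, all lower with HDM (Gzmb, Gzmc and Mcpt4). Of all adipose probes, 9.9% passed that level in either direction. Mcpt4 was not well above background on any adipose array. Mcpt1, a mast cell chymase, stood in lung at 1.75, 1.74, 1.67, 1.42 and 1.80 in HDM rats 1 to 5. The control rats stood at 2.05, 0.91 and 0.70 in lung. Control rat 1 was thus the highest of all, and the log2 difference was 0.46 (SE 0.29, adjusted p = 0.731 in limma). Mcpt1l1, a related gene, had the same high value in control rat 1 and differed by 0.40, and the cytotoxic protease Gzmb by 0.44. In adipose tissue Gzmc differed by -2.56 (SE 1.04, adjusted p = 0.478 in limma), Gzmb by -1.37 (adjusted p = 0.353 in limma), Mcpt1l1 by 0.59 and Mcpt1 by 0.19. Without control rat 1 these were -1.42 for Gzmc, -1.26 for Gzmb, -0.58 for Mcpt1l1 and -0.32 for Mcpt1. The adipose Gzmb probe, another than in lung, was well above background in only 2 of the 5 HDM rats, and in all 3 control rats. Mcpt2 and Mcpt8 had no named probe.

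Among 32 genes of mast cell identity and mediators, 28 were measured and 0 were called in either tissue, with a median of 0.01 in lung and 0.12 in adipose tissue. In lung the HDM rats lay wholly above the controls for 5 of the 28, against 4.65% of all probes. Alox5ap, which presents arachidonic acid to 5-lipoxygenase for leukotriene synthesis, was among them and differed by 0.73 (SE 0.13, 1.66-fold, adjusted p = 0.0594 in limma). Other genes of the list had smaller differences. Gata2, a transcription factor of mast cells, differed by 0.12, Kitlg, the ligand of Kit, by 0.09, Slc18a2, the transporter that loads histamine into granules, by 0.02, and Il1rl1, the IL-33 receptor, by 0.28. Enpp3, a surface enzyme of mast cells and basophils, differed by 0.51, and Gata1 by 0.48, with adjusted p of 0.647 and 0.768 in limma. In adipose tissue Kitlg differed by 0.07, Slc18a2 by 0.02 and Gata2 by -0.05, or by -0.10, -0.13 and -0.17 without control rat 1, and the widest differences were those of Il1rl1 (1.24, SE 1.51), Slc6a4 (-1.05, SE 0.91) and Alox5 (0.94, SE 0.51). HDM rat 1 stood at 1.48 for Il1rl1 against -4.52 to -3.02 in the other HDM rats. The Il1rl1 difference was 0.20 without HDM rat 1, 2.43 without control rat 1 and 1.38 without both. Signal limits these values, since Il1rl1 was well above background in 4 of 5 HDM rats and 2 of 3 control rats. Control rat 2 stood at -6.28. Slc6a4 went to -0.46 without HDM rat 1 and Alox5 to 0.47 without control rat 1.

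Among 12 other Fc receptors, 11 were measured and 0 were called. Fcgr1a and Fcgr3a, IgG receptors that signal through Fcer1g, differed by 0.82 (SE 0.19, adjusted p = 0.118 in limma) and 0.42 (adjusted p = 0.443 in limma) in lung, and Lilrb4, an inhibitory receptor, by 0.89 (SE 0.17, adjusted p = 0.0708 in limma). The HDM rats lay wholly above the controls for 3 of the 11, Fcgr1a, Lilrb4 and Fcgr2a, against the 4.65% of all probes given above. Fcer2, the low-affinity IgE receptor of B cells, differed by 0.35 (adjusted p = 0.605 in limma), and the median in lung was 0.35. In adipose tissue Fcmr differed by 0.94, Fcgr1a by 0.82 and Fcgr2b by 0.78, with Fcmr at 0.42 without control rat 1, while Fcer2 was not well above background in any of the 5 HDM rats.

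Of 19 plasma cell and class-switch genes, 13 were measured and 0 were called in either tissue. In lung 5 of 13 were higher, with a median of -0.08, and in adipose tissue 4 of 13, with a median of -0.07. In lung Il4, the cytokine that directs the switch to IgE, differed by 0.75 (SE 0.34, adjusted p = 0.521 in limma), the B cell receptor component Cd79b by 0.56 (adjusted p = 0.0715 in limma) and Prdm1, the plasma cell regulator, by 0.29. Xbp1, a secretory cell regulator named here after its value was seen, lay below the controls in all 5 HDM rats and differed by -0.25 (adjusted p = 0.359 in limma). In adipose tissue Prdm1 differed by 0.64, Stat6 by -0.34 and Irf4 by 0.21, which were 0.25, -0.30 and 0.0058 without rats 1.

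Cpa3 served as the reference for likeness of pattern. Each of 11246 gene symbols was centered within each tissue and treatment group. Its correlation with Cpa3 was then taken over the 16 arrays, which come from 8 rats. The difference between HDM and control rats therefore did not enter the correlations. Cma1 ranked 9 of 11246, counting Cpa3 itself, with r = 0.936 over both tissues, 0.972 in adipose tissue and 0.510 in lung. Tpsb2 ranked 22, Fcer1a 104, Ms4a2 345, Tpsab1 414, Fcer1g 502 and Hdc 912, while Kit ranked 6817 with r = -0.059. The genes between Cpa3 and Cma1 were Pan3, Tlcd4, Phtf2, Ywhah, Naaa, Pofut2 and Ang2, with r of 0.936 to 0.944. For Tlcd4 the correlation was 0.976 in adipose tissue and 0.083 in lung, so its place came from the adipose arrays, in which rats 1 of both groups were low for Cpa3. These correlations share rats and arrays and are given as a description.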

How the data were processed

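RNA from lung and adipose tissue of 8 rats was hybridized to single-color (Cy3) Agilent rat 8x60K arrays from 50 ng of total RNA per sample. The authors scanned the arrays and deposited, per the file headers, spot intensities from Agilent Feature Extraction 12.0.3.1, with the background subtracted in the processed signal. The deposited log2 table of the series holds values that the authors normalized and centered per gene within each tissue: it matched the intensities here within 0.1 for 100% of lung and 99.9% of adipose cells, leaving out 39 cells that hold no number, and served as an alternative. Samples were grouped by their GEO labels, each replicate being a separate rat, and 0 columns of samples were left unmapped. The number of arrays limits the precision.

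The log2 of the processed signal was averaged over the spots of a probe, without spots flagged as outliers, and the 75th percentile of each array was subtracted. Of 45598 probes, 21229 were given a gene symbol by matching RefSeq transcripts to a RefSeq gene table of the GRCr8 assembly, while the array design names the rn4 build, so no gene coordinates were taken from it. HDM and control rats were compared in each tissue with limma 3.58.1 in R 4.3.3, as were the lung minus adipose values of each rat. A probe was called at a Benjamini-Hochberg adjusted p below 0.05 and a fold above 1.5, and the difference between tissues at an adjusted p below 0.05 alone. The methods name an unpaired t-test with Benjamini-Hochberg adjustment, which was run as an alternative. Motifs and figures were made with Python 3.11.15 and matplotlib 3.10.9, and tables with version 1.17.8 of data.table and version 2.0.0 of jsonlite. The code was tested on simulated data.

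All 9 members are named. From the wider lists, every called gene of a pathway list was named, and up to 3 further genes per list and tissue with the widest difference among those well above background on at least 4 of 8 arrays, with Mcpt1, Mcpt2, Mcpt8, Gata2, Kitlg, Slc18a2, Il1rl1, Fcer2, Syk and Lyn in any case. Marker genes named in the text were chosen after their values were seen. The members and the lists were chosen with earlier results of these data known. HDM and control rats that share a number are different rats, and the deviations of same-numbered rats from their group means correlated at -0.057 to 0.009 in lung and 0.091 to 0.722 in adipose tissue, so the numbers were not taken as pairs. The alternatives were a block on the slide row, array weights, other scalings, another background correction, a filter on dim probes, a block on the replicate number and each rat left out in turn.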

Additional observations from a re-analysis of the deposited data

Results flagged for a closer look

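Among the HDM rats, the adipose Tpsb2 value of HDM rat 4 stood apart from the others. It was -1.10, against -2.65 to -2.32 in HDM rats 1, 2, 3 and 5, and the gap made up 0.788 of the whole range of the group, above the 0.71 at which 5 values are taken to hold a value that stands apart. Chance gives this in about 5% of groups, and 18 groups of HDM values were examined. Control rat 3 reached -1.07, so HDM rat 4 lay within the range of the control rats.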

How the results depend on the processing

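Of 690 member values recomputed under alternatives, 616 kept their direction and their side of the threshold, 6 lost a call, 7 gained one and 61 changed sign, none of the last being called. In lung, 1 member was called when the adjustment covered the probes past 1.5-fold alone (Hdc), 1 with quantile normalization (Fcer1g), 1 with the 75th percentile of probes well above background (Fcer1g), 1 with array weights (Hdc) and 2 with normexp correction and quantile normalization (Fcer1g and Hdc). The count stayed at 0 in lung under the other settings, and in adipose tissue and for the difference between tissues under all settings run. The methods' t-test gave Fcer1g in lung an adjusted p of 0.0312 with a fold under 1.5.

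Signs changed as follows, on the log2 scale. With median scaling, Tpsab1 was -0.042 in lung, 0.22 in adipose tissue and -0.26 for the difference between tissues, and with array weights -0.0191, 0.0388 and -0.15. Scaling to Gapdh and Hprt1 gave -0.0997 for lung Tpsab1 and -0.0221 for adipose Hdc, which was -0.0373 with the percentile of probes well above background and -0.0422 with normexp. Blocking on the slide row, which leaves HDM rat 5 against the controls, gave lung Ms4a2 as -0.18, Cpa3 -0.24 and Tpsab1 -0.31, adipose Ms4a2 0.41 and Tpsab1 0.36, and the difference between tissues -0.0134 for Fcer1a, -0.60 for Ms4a2 and -0.67 for Tpsab1. With the replicate block, which called no member, adipose Tpsb2 was -0.13, Cma1 -0.32 and Hdc -0.17, and the difference between tissues 0.0584 for Cpa3, 0.10 for Tpsb2 and 0.49 for Cma1. Under the same replicate block lung Hdc was 1.07 (adjusted p = 0.310 in limma) and Fcer1g 0.57 (adjusted p = 0.322 in limma).

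Without HDM rat 1 and control rat 1, adipose Fcer1a was -0.0302, Tpsb2 -0.42, Cma1 -0.19 and Hdc -0.085, and the difference between tissues was 0.20 for Cpa3, 0.32 for Tpsb2 and 0.41 for Cma1. In the level of control rats, lung minus adipose was then -0.0853 for Ms4a2 and -0.32 for Tpsab1, and 5 members were called in place of 6. With each rat left out in turn, lung Tpsab1 ranged from -0.13 to 0.20 and Tpsb2 from -0.13 to 0.0253. Adipose Fcer1a ranged from -0.25 to 0.64, Cpa3 from -0.25 to 1.38, Tpsab1 from -0.46 to 0.31, Tpsb2 from -0.52 to 0.92, Cma1 from -0.45 to 0.61 and Hdc from -0.27 to 0.20. The difference between tissues ranged from -0.14 to 0.90 for Fcer1a, -1.30 to 0.50 for Cpa3, -0.44 to 0.42 for Tpsab1, -0.99 to 0.44 for Tpsb2 and -0.59 to 0.56 for Cma1. The lung minus adipose level ranged from -0.0853 to 0.82 for Ms4a2 and -0.32 to 0.54 for Tpsab1. Fcer1a lost its level call without HDM rat 2, 3 or 5 or control rat 1 or 2, and Cpa3 gained one without control rat 3 (2.31, adjusted p = 0.0454 in limma). Lung Hdc stayed between 0.74 and 0.95 and Fcer1g between 0.52 and 0.59, neither called.

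Of the 22 adipose values of named list genes, 16 changed sign or moved by over 1.5 times without HDM rat 1, control rat 1 or both. The causes of these changes were not tested. The alternatives for the level of control rats, the row block for the difference between tissues and the list genes without rats 1 were chosen after seeing the data. Among the members, low signal limits the adipose values of Ms4a2, Cpa3 and Tpsb2, which were not well above background on 1 array each. Having 3 control rats limits every comparison.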
